A study of Rattus norvegicus with 20 samples.

Results

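The miRNAs described here are 7 miRNAs named for their roles in neuronal excitability and synapses and encoded outside the large clusters of chromosome 6. They are rno-miR-128-3p, rno-miR-129-5p, rno-miR-137-3p, rno-miR-138-5p, rno-miR-218a-5p, rno-miR-26a-5p and rno-miR-26b-5p. They were chosen by name and not by a rule on their values, though earlier results of these data were known, and their reads were summed in each library. All 7 were found, out of 617 miRNAs with reads, and all 7 were among the 500 miRNAs with at least 10 reads in at least 5 of 20 libraries, which were tested. Small RNA was sequenced from punches of the adBNST, which is the anterodorsal division of the bed nucleus of stria terminalis and a part of the extended amygdala that takes part in anxiety and stress responses, in Sprague-Dawley rats. From weaning on postnatal day 21, rats lived for 6 weeks either alone (socially isolated, SI) or 3 to a cage with littermates of their sex (group housed, GH, the controls). Tissue was taken at 9 weeks of age, after an elevated plus maze test that both housing groups went through. There were 4 groups, 1 for each housing condition in each sex, with 5 libraries in each and each library labelled as a separate rat.

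A miRNA is cut from a hairpin precursor that has 2 arms, of which 1 usually gives the more abundant strand. The mature strand guides the silencing complex to mRNAs that pair with its seed, bases 2 to 8 counted from the 5′ end. In neurons, some miRNAs act near synapses, where they hold back the translation of proteins that set spine size, receptor number or ion channel density. miR-128 is known as a brake on neuronal excitability, and miR-129-5p as a repressor of a potassium channel and of factors that take part in the scaling of excitatory synapses. miR-137 acts on synaptic vesicle and glutamate receptor genes, and miR-138 limits the size of dendritic spines. miR-218, encoded within Slit genes, is a miRNA of motor neurons and other excitatory cells. The miR-26 miRNAs are found in many tissues, are encoded within genes of the small C-terminal domain phosphatases, and have been linked to dendritic spines and neuronal differentiation.

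The mature sequences are printed because the seed decides which mRNAs each miRNA can pair with, and because the read forms described further on are departures from these letters. They are from RefSeq (GRCr8), 5′ to 3′, with the seed in capitals.
rno-miR-128-3p: uCACAGUGaaccggucucuuu
rno-miR-129-5p: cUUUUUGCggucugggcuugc
rno-miR-137-3p: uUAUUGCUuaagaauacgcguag
rno-miR-138-5p: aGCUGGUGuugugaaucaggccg
rno-miR-218a-5p: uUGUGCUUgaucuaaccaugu
rno-miR-26a-5p: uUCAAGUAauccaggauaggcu
rno-miR-26b-5p: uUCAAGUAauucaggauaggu
rno-miR-26a-5p and rno-miR-26b-5p have the same seed and differ at C11U and C21U, with the base of rno-miR-26a-5p first and positions counted from 1 at the 5′ end. The seed of each other miRNA of the 7 was found in no second rat mature miRNA of the RefSeq table. In all 7, the sequence that the deposited files treat as the reference was the RefSeq sequence.

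In GRCr8, the mature sequence of rno-miR-128-3p is encoded at chr8:120963807-120963827 on the minus strand, within Arpp21, and at chr13:42251933-42251953 on the plus strand, within R3hdm1. rno-miR-129-5p comes from chr3:100657448-100657468 (minus strand), where the annotation lists no containing gene, and from chr4:58589716-58589736 (plus strand), within a long noncoding RNA. rno-miR-137-3p has a single locus at chr2:209165767-209165789 (plus strand), within a long noncoding RNA. rno-miR-138-5p comes from chr8:131178456-131178478 (plus strand), within long noncoding RNAs, and from chr19:10680184-10680206 (minus strand), within Slc12a3. rno-miR-218a-5p comes from chr10:20572547-20572567 (plus strand), within Slit3, and from chr14:66922413-66922433 (minus strand), within Slit2. rno-miR-26a-5p lies at chr8:127633063-127633084 (plus strand), within Ctdspl, and rno-miR-26b-5p at chr9:83425723-83425743 (plus strand), within Ctdsp1. miRNAs with a pair of loci have identical mature sequences at both, so their reads could not be divided between the loci.

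Libraries held 3428930 to 11383055 miRNA reads, with a median of 6705043. The 7 miRNAs took 6.56 to 16.1% of these reads, the lowest share being in an SI female. The TMM factors that scaled the libraries ran from 0.831 in SI female 16 to 1.26 in GH female 17. Reads carried no molecular identifiers in these files, so the counts have PCR noise beyond counting error. For the SI rats named I17, labels and file names gave opposite sexes. The labels were followed, and results were also computed with those 2 libraries exchanged. SI female 16 and both I17 libraries lay low for several of the 7 miRNAs, and results were therefore also computed without these 3 libraries.

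Mature miRNAs are of nearly equal length, so levels were compared on a reads-per-million scale (RPM, normalized by TMM), although adapter ligation favours some sequences over others. rno-miR-26a-5p was the third most abundant of the 500 miRNAs, with a median of 62772 RPM over the 20 rats (26910 to 83577). rno-miR-128-3p ranked 7 with a median of 44151 (27393 to 74049), and rno-miR-129-5p ranked 20 with a median of 12755 (5917 to 21497). The first of these was higher than rno-miR-128-3p in 17 of 20 rats, by 0.49 ± 0.38 (SD) on the log2 scale, and rno-miR-128-3p was above rno-miR-129-5p in 20 of 20.

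rno-miR-218a-5p had a median of 4462 RPM (1681 to 5777) and rno-miR-26b-5p of 2933 (1546 to 5549). The former was higher in 18 of 20 rats, by 0.51 ± 0.51 (SD) on the log2 scale. rno-miR-137-3p, with a median of 179 (34.2 to 339), and rno-miR-138-5p, with a median of 150 (83.5 to 279), were the least abundant, at ranks 185 and 188. rno-miR-137-3p was the higher of the pair in 15 of 20 rats, but the within-rat difference of 0.12 ± 0.85 (SD) on the log2 scale was smaller than its spread (permutation test with sign flips, two-sided, p = 0.52).

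**Figure D1:**
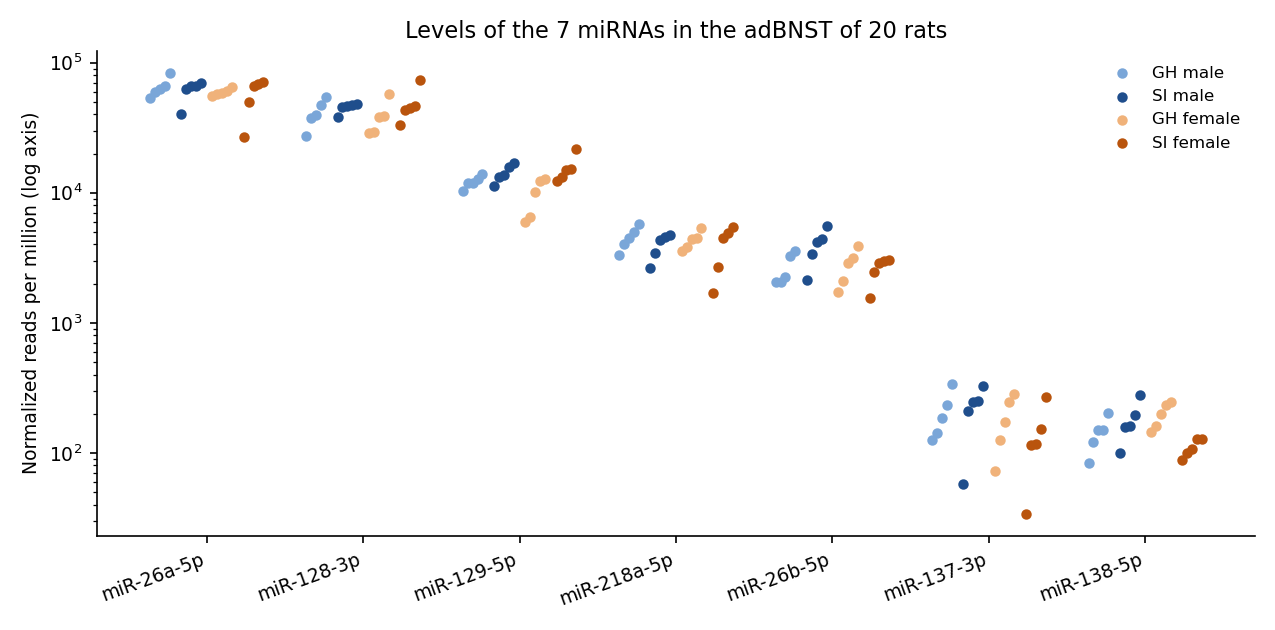
Normalized RPM (log axis) of the 7 miRNAs, ordered by mean level, with a point for each of 20 rats and a colour for each group of 5. rno-miR-26a-5p and rno-miR-128-3p lie at the top, rno-miR-137-3p and rno-miR-138-5p at the bottom with overlapping ranges, and the points of SI females for rno-miR-138-5p sit below those of GH females.

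The most abundant of the 7 varied least between rats. The SD of log2 levels over the 20 rats was 0.34 for rno-miR-26a-5p, 0.35 for rno-miR-128-3p, 0.42 for rno-miR-129-5p and 0.43 for rno-miR-218a-5p, against a median of 0.78 over the 500 miRNAs. It was 0.48 for rno-miR-26b-5p, 0.49 for rno-miR-138-5p and 0.86 for rno-miR-137-3p, the only one of the 7 above that median. The 500 behind that median were not matched to the 7 in level. Reads of rno-miR-137-3p ran from 178 to 2826 per library and those of rno-miR-138-5p from 418 to 2090, the fewest of the 7.

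Housing was compared first over both sexes, as the mean of the male and female contrasts in edgeR's quasi-likelihood test with Benjamini-Hochberg adjustment over the 500 miRNAs. rno-miR-129-5p rose in SI rats, and it was the only one of the 7 to pass the threshold of 0.05. In this comparison 88 of the 500 miRNAs, or 17.6%, passed, 37 of them higher and 51 lower in SI rats, so 1 of 7 is near the share of all miRNAs. The median log2 fold change of the 7 was -0.08, and that of the 500 was -0.0046. The median absolute log2 fold change was 0.23 for the 7 and 0.46 for the 500. The 500 were not matched to the 7 in level, and the 7 had level ranks from 3 to 188.

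The level of rno-miR-129-5p was 10236, 11868, 11922, 12830 and 13841 RPM in the 5 GH males and 11306, 13150, 13588, 15789 and 16857 in the 5 SI males. It was 5917, 6550, 10061, 12274 and 12680 in GH females and 12208, 13131, 14831, 15140 and 21497 in SI females. In males 2 of 5 SI rats lay above every GH rat, and in females 4 of 5 did, so SI and GH rats overlapped in both sexes. Over both sexes the log2 fold change was 0.46 ± 0.15 (SE), or 1.37-fold, with an adjusted p of 0.040 by edgeR. It was 0.22 ± 0.21 (SE) in males (adjusted p = 0.62 by edgeR) and 0.69 ± 0.21 in females (adjusted p = 0.084), neither past the threshold, and the difference between the sexes was 0.47 ± 0.30 (adjusted p = 0.80).

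The call for rno-miR-129-5p lay close to the threshold. It was lost on leaving out any 1 of 12 libraries, with adjusted p-values between 0.054 and 0.082 by edgeR. These were GH males 16, 18, 20 and 21, SI males 15, 17, 20 and 22, GH females 16 and 17, and SI females 12 and 17, and the log2 fold change stayed between 0.36 and 0.52 over all 20. Without SI female 16 and both I17 libraries it was 0.44 (adjusted p = 0.074). GH females 16 and 17, with 5917 and 6550 RPM, had the lowest values of all 20 rats and also the largest TMM factors, 1.20 and 1.26. A larger factor lowers the normalized level, and factors were mostly higher in GH rats. No fit was run without such scaling, so its part in the rise of rno-miR-129-5p was not tested. Markers of other cells moved with housing in the same libraries. The summed level of 4 vascular miRNAs (all 4 measured, 2 called lower in SI rats) was 4308 to 7208 RPM in SI males against 10470 to 15178 in GH males, and 2130 to 14870 in SI females against 11376 to 21974 in GH females. The summed level of 4 blood miRNAs (all measured, 1 called higher) was 1493 to 3117 in SI males against 1007 to 1359 in GH males, and 1422 to 4036 in SI females against 795 to 1456 in GH females. Nearly all of it was miR-486, the one called, and the others were at most 27.6 RPM in any library. miR-451-5p had a log2 fold change of 0.09 ± 0.94 (SE) over both sexes, and in females 2 of the 4 were positive and 2 negative. Of the oligodendrocyte list 1 of 4 was called higher and 1 lower, and of the microglia and immune list 0 of 5 passed. Of the choroid plexus and epithelial list 0 of the 4 tested passed, and its summed level was at most 5245 in every group but SI males. There the median was 1292, and the highest, 18227 in SI male 20, was nearly all miR-204-5p (18185 RPM). Their part in the change of rno-miR-129-5p was not tested, and in punches of tissue fewer cells of a type and less RNA per cell cannot be told apart.

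**Figure D2:**
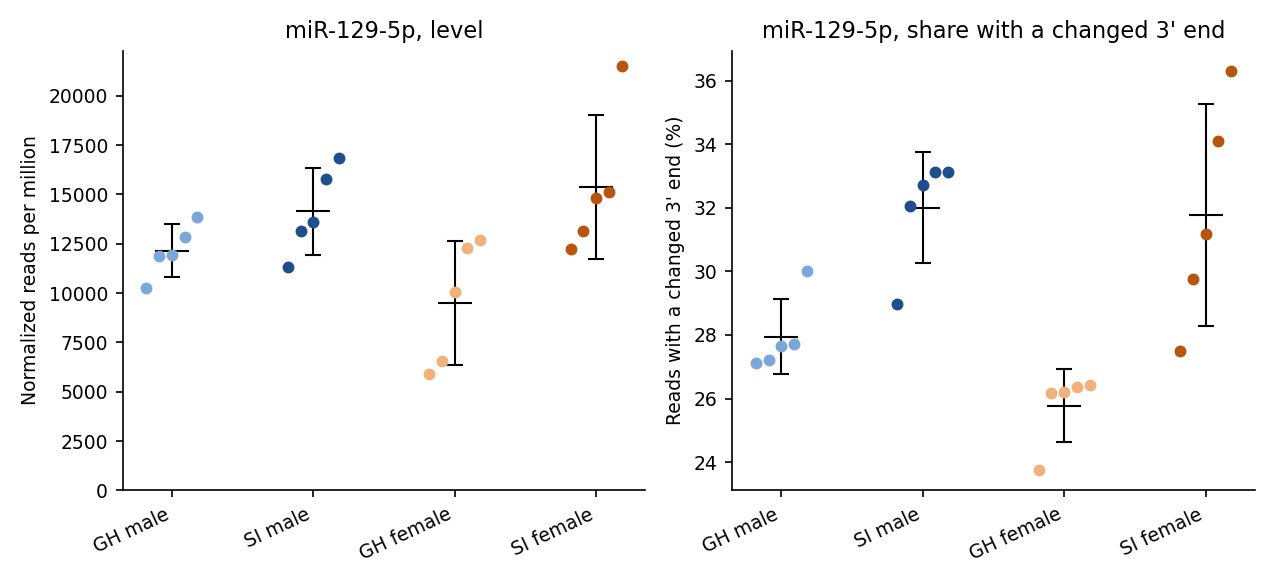
rno-miR-129-5p in the 4 groups of 5 rats: normalized RPM on the left (axis from 0) and the share of its reads with a changed 3′ end, in percent, on the right (axis not from 0), with a point per rat and bars for the mean ± SD. Shares in SI females (27.5 to 36.3%) lie above all GH females (23.7 to 26.4%), and levels overlap between SI and GH rats of each sex.

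The miR-129 precursors also give 3p strands, which differ between the loci. rno-miR-129-1-3p, the 3p strand of the chromosome 4 locus, fell by 0.67 ± 0.23 (SE) on the log2 scale over both sexes (adjusted p = 0.044 by edgeR). It was 112.6, 122.8, 140.9, 231.8 and 301.8 RPM in GH females and 69.6, 81.3, 83.9, 85.0 and 125.5 in SI females, where 4 of 5 SI females lay below every GH female. In males it was 93.5 to 163 in SI rats and 87.8 to 250 in GH rats, with wide overlap. This call was also lost on leaving out any 1 of 10 libraries (adjusted p 0.055 to 0.10), namely GH males 16, 19 and 21, SI males 15, 17 and 20, GH females 16 and 17, and SI females 12 and 14. With only reads of a single miRNA the fall was 1.04 on the log2 scale, and adjusted p was then 0.097. rno-miR-129-2-3p, the 3p strand of the chromosome 3 locus, did not pass, with a log2 fold change of -0.10 ± 0.23 (SE) over both sexes, 0.31 ± 0.33 in males and -0.50 ± 0.33 in females. Over both sexes the log2 ratio of rno-miR-129-5p to its summed 3p reads was 0.59 higher in SI rats, which did not pass (exact permutation test, p = 0.12, adjusted p = 0.27 over 188 arm ratios). This ratio was higher in SI than in GH females by 1.24 and lower in SI than in GH males by 0.07. That difference between the sexes had an unadjusted p of 0.046 and an adjusted p of 0.45 over 188 arm ratios (exact permutation test), so it did not hold up.

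rno-miR-138-5p showed a separation in females that did not pass the adjusted threshold. Its level was 144, 161, 199, 232 and 245 RPM in GH females and 87.5, 100, 106.2, 128.4 and 128.8 in SI females. All 5 SI females lay below all 5 GH females, a pattern found in either direction for 2% of the 500 miRNAs in females. It was 83.5, 122, 149, 151 and 204 in GH males and 99.2, 157, 162, 195 and 279 in SI males, which overlapped. The log2 fold change was -0.83 ± 0.28 (SE) in females (0.56-fold, unadjusted p = 0.0061 and adjusted p = 0.10 by edgeR) and 0.33 ± 0.27 in males (adjusted p = 0.53). The difference between the sexes was -1.16 ± 0.39 (unadjusted p = 0.0065, adjusted p = 0.46). With the I17 libraries exchanged, the log2 fold change in females was -0.66 and the groups overlapped, since the library then counted as female had 157 RPM.

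The 3p strand of the chromosome 19 locus of miR-138, rno-miR-138-2-3p, went the other way in females. It was 108.0, 127.4, 150.02, 157.1 and 159.4 RPM in GH females and 161.8, 225.6, 232.8, 240.8 and 280.4 in SI females, again without overlap. Its log2 fold change was 0.70 ± 0.22 (SE) in females (adjusted p = 0.084 by edgeR) and -0.12 ± 0.22 in males. The 3p strand of the chromosome 8 locus, rno-miR-138-1-3p, overlapped in females, with 50.5 to 87.5 RPM in GH and 56.4 to 117 in SI rats. Its log2 fold change was 0.23 ± 0.30 (SE) in females (adjusted p = 0.72 by edgeR) and -0.03 ± 0.30 in males. The log2 ratio of rno-miR-138-5p reads to the summed 3p reads was -0.55, -0.40, -0.06, -0.01 and 0.33 in GH females and -2.17, -1.56, -1.41, -1.24 and -1.12 in SI females. In males it ran from -0.79 to 0.19 in SI rats and from -1.47 to -0.05 in GH rats. All SI females therefore lay below all GH females, with a difference of -1.36 in females and 0.41 in males. Within females this did not pass (exact permutation test, p = 0.0079, adjusted p = 0.21 over 188 arm ratios). Of the 188 ratios, 29 had an unadjusted p under 0.05 in females. How many of the 188 had no overlap in females was not counted.

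For this ratio of the miR-138 arms, the difference between the sexes was -1.77 on the log2 scale. Its unadjusted p was 6.0e-04 and its adjusted p over 188 arm ratios was 0.11 (exact permutation test, two-sided, labels of sex exchanged within housing groups). This exchange is exact only if sex has no effect within either housing group, so p does not measure the interaction alone. None of the 188 ratios passed in this comparison (0.00%), and 17 had an unadjusted p under 0.05. With the I17 libraries exchanged the difference was -1.17 (unadjusted p = 0.038), and without SI female 16 and both I17 libraries it was -1.67 (unadjusted p = 0.0034). For housing over both sexes 32 arm ratios, or 17%, passed, and 31.9% had an unadjusted p under 0.05. Of the arm ratios of the 7 miRNAs, 0 had either. The partner arms of rno-miR-128-3p, rno-miR-218a-5p, rno-miR-26a-5p and rno-miR-26b-5p had 0 reads in some libraries, and their ratios were not read further.

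**Figure D3:**
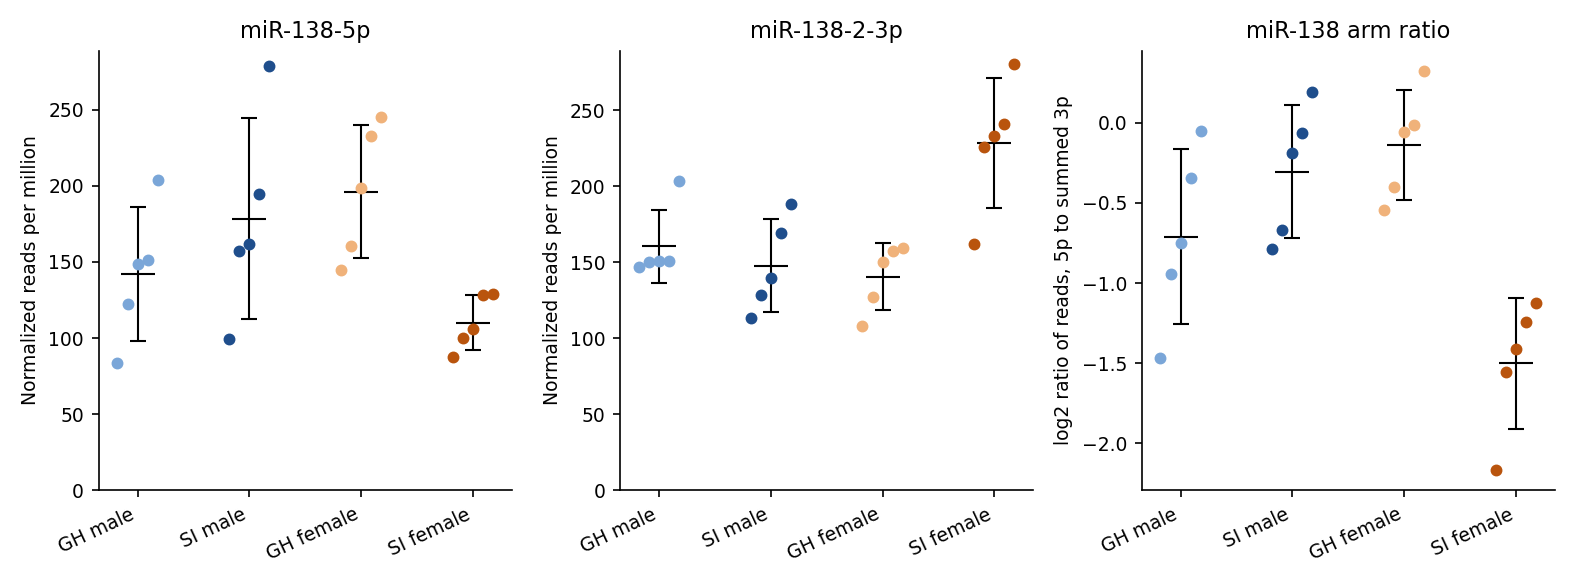
rno-miR-138-5p and rno-miR-138-2-3p in normalized RPM (axes from 0), and the log2 ratio of rno-miR-138-5p reads to the summed 3p reads, in 4 groups of 5 rats, with a point per rat and bars for the mean ± SD. In females the SI rats sit below the GH rats for the 5p strand (87.5 to 128.8 against 144 to 245) and for the ratio, and above them for the 3p strand (161.8 to 280.4 against 108.0 to 159.4).

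The paralogs of miR-26 did not pass in any housing comparison. rno-miR-26b-5p was 2065, 2072, 2250, 3264 and 3534 RPM in GH males and 2145, 3380, 4199, 4377 and 5549 in SI males. Of the SI males, 4 of 5 lay above 4 of the 5 GH males, and an I17 library was the low one. Its log2 fold change was 0.58 ± 0.26 (SE) in males (unadjusted p = 0.039, adjusted p = 0.20 by edgeR) and -0.09 ± 0.26 in females. Without SI female 16 and both I17 libraries the value in males was 0.70 (adjusted p = 0.048), and without SI male 20, the highest, it was 0.35 (adjusted p = 0.51). In females the levels were 1718 to 3880 in GH and 1546 to 3060 in SI rats.

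rno-miR-26a-5p, which has the same seed and a higher level, was 40269 to 69298 RPM in SI males against 53024 to 83577 in GH males, and 26910 to 70800 in SI females against 55243 to 65306 in GH females. Its log2 fold change over both sexes was -0.08 ± 0.15 (SE; adjusted p = 0.78 by edgeR), with an approximate 95% interval from -0.38 to 0.21. The log2 ratio of rno-miR-26a-5p to rno-miR-26b-5p ran from 3.50 to 4.28 in SI males and from 4.08 to 4.92 in GH males. It was 0.37 lower in SI than in GH rats over both sexes (exact permutation test, two-sided, p = 0.044), 0.65 lower in males and 0.08 lower in females. Without the 3 libraries named above p was 0.12.

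The other 3 miRNAs did not pass over both sexes or in either sex. rno-miR-128-3p was 38201 to 47807 RPM in SI males against 27393 to 54570 in GH males, and 33370 to 74049 in SI females against 28703 to 57334 in GH females. Its log2 fold change over both sexes was 0.23 ± 0.16 (SE; adjusted p = 0.34 by edgeR), with an interval from -0.08 to 0.53. rno-miR-218a-5p was 2637 to 4730 in SI males against 3331 to 5777 in GH males, and 1681 to 5451 in SI females against 3560 to 5319 in GH females, with a log2 fold change of -0.19 ± 0.18 (adjusted p = 0.53) and an interval from -0.54 to 0.17.

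rno-miR-137-3p had the widest interval. It was 58.1 to 326 RPM in SI males against 126 to 339 in GH males, and 34.2 to 269 in SI females against 73.0 to 284 in GH females, so that its highest and lowest rats differed more than those of any other of the 7 on the log2 scale. The log2 fold change over both sexes was -0.15 ± 0.32 (SE; adjusted p = 0.82 by edgeR), with an interval from -0.78 to 0.48, which leaves differences of that size undetected. The lowest value in each SI group came from an I17 library or from SI female 16.

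**Figure D4:**
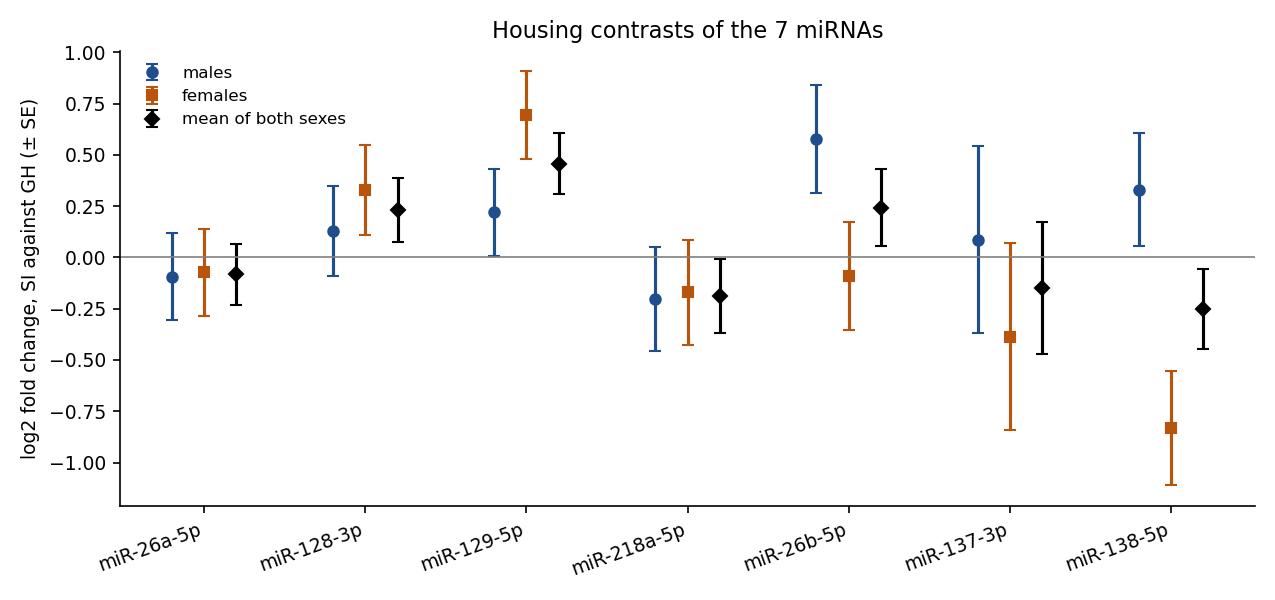
log2 fold change of SI against GH rats, with its SE, for the 7 miRNAs in males, in females and as the mean of both (edgeR, 5 rats a group). rno-miR-129-5p lies above 0 in all 3 contrasts, rno-miR-138-5p is below 0 in females (-0.83) and above it in males (0.33), and the SE bars of rno-miR-26a-5p cross 0 in all 3.

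In males 0 of the 7 passed, against 20 of 500 miRNAs (4%), and 13.8% of the 500 had SI and GH males that did not overlap, which held for 0 of the 7. In females 0 of the 7 passed, against 2 of 500 (0.400%). For the interaction of housing and sex it was 0 of 7 against 2 of 500 (0.400%). Between the sexes, 0 of the 500 miRNAs passed in GH rats (0.00%) and 0 in SI rats (0.00%) by edgeR, with 12 and 50 at an unadjusted p under 0.05, and DESeq2 called 5 and 5. Of the 7, rno-miR-138-5p was lower in SI females than in SI males by 0.70 ± 0.28 (SE) on the log2 scale (unadjusted p = 0.019, adjusted p = 0.35 by edgeR), and rno-miR-26b-5p by 0.61 ± 0.26 (unadjusted p = 0.031, adjusted p = 0.41), a log2 fold change of -0.37 without SI male 20. In GH rats 0 of the 7 had an unadjusted p under 0.05.

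Other neuronal miRNAs were set beside the 7 as a list of 14, all of which were tested, and whose summed level was 93262 to 222975 RPM over the 20 libraries. The list was chosen with earlier results of these data known, so its calls give no independent comparison with the 7. Over both sexes 6 of the 14 were called lower and 0 higher, where 17.6% of the 500 were called in either direction. Of the 14, 11 had a negative and 3 a positive log2 fold change, with a median of -0.40. Those called lower were miR-153-3p (-1.66 ± 0.35 SE), miR-135b-5p (-1.35 ± 0.28), miR-135a-5p (-0.76 ± 0.26) and miR-181a-5p (-0.40 ± 0.13). The others were miR-132-5p (-0.66 ± 0.18) and miR-212-3p (-0.44 ± 0.15), both from the activity-dependent cluster. The adjusted p-values of these 6 ran from 0.0039 to 0.045 by edgeR. The other strands of that cluster did not pass. They were miR-132-3p (-0.20 ± 0.16 SE, adjusted p = 0.41 by edgeR) and miR-212-5p (-0.01 ± 0.15, adjusted p = 0.98). miR-132-3p had a median of 5889 RPM over the 20 rats, against 400 for miR-132-5p. miR-34a-5p did not pass over both sexes (0.53 ± 0.22, adjusted p = 0.088 by edgeR). In males it was called higher (1.52 ± 0.31, adjusted p = 0.0070), and in females it was -0.46 ± 0.30 (adjusted p = 0.42). Its interaction of -1.99 ± 0.43 passed (adjusted p = 0.041), but with I17 exchanged 0 of the 500 did. Of the 7 described here 1 was called higher and 0 lower, and 3 had a positive and 4 a negative log2 fold change. Of the 10 tested partner arms 0 were called higher and 1 lower.

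Reads of each miRNA were also divided by form. A read could equal the reference, have a 5′ end that was shortened or lengthened, have a 3′ end that was shortened or lengthened along the precursor, or carry nucleotides added to the 3′ end, and 1 read could belong to several of the last 3. The reference sequence was the most counted read of 6 of the 7 miRNAs, with 74.8% of the reads of rno-miR-26a-5p, 60.0% of rno-miR-128-3p, 59.9% of rno-miR-129-5p, 40.2% of rno-miR-218a-5p, 29.3% of rno-miR-137-3p and 25.4% of rno-miR-138-5p. rno-miR-26b-5p was the exception. The reference had 12.3% of its reads, and a read longer by 1 templated base had 70.0%. The sequences that carry this and the next result are shown as deposited (DNA letters).
rno-miR-26b-5p, reference: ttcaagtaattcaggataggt
rno-miR-26b-5p, longer by 1: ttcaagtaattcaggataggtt
rno-miR-129-5p, reference: ctttttgcggtctgggcttgc
rno-miR-129-5p, shorter by 1: ctttttgcggtctgggcttg
None of these reads has a changed seed.

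For each form, the share of a miRNA's reads was compared between SI and GH rats over both sexes with an exact permutation test within sex (two-sided, 63504 assignments, smallest p 3.15e-05), adjusted over the 1250 forms of all miRNAs with reads in every library. Of these 49, or 3.92%, passed, and 15.7% had an unadjusted p under 0.05. Among the 28 forms of the 7 miRNAs, 2 passed, and 12 had an unadjusted p under 0.05. For the difference between the sexes 0 of the 1250 passed (0.00%), and 87 had an unadjusted p under 0.05.

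The share of rno-miR-129-5p reads with a changed 3′ end was higher in SI rats. It was 27.1, 27.2, 27.7, 27.7 and 30.0% in GH males and 29.0, 32.1, 32.7, 33.1 and 33.1% in SI males. It was 23.7, 26.2, 26.2, 26.4 and 26.4% in GH females and 27.5, 29.8, 31.2, 34.1 and 36.3% in SI females. The females did not overlap, and in males only the lowest SI rat lay below the highest GH rat. Females also did not overlap for the reference share of rno-miR-129-5p and of rno-miR-218a-5p. The same held for changed 3′ ends of rno-miR-218a-5p and rno-miR-137-3p. Each had p = 0.0079 in females (exact permutation test, adjusted p = 0.31), and 111 of the 1250 forms had an unadjusted p under 0.05 there. For changed 3′ ends of rno-miR-129-5p the difference was 5.02 percentage points over both sexes (exact permutation test, p = 6.3e-05, adjusted p = 0.0087), 4.06 in males and 5.99 in females. The call held on leaving out each library in turn, with adjusted p-values from 0.0061 to 0.039, and without SI female 16 and both I17 libraries the difference was 4.59 points with an adjusted p of 0.055. The read shorter by 1 base was 13.01 ± 1.01% (SD, n = 5) of reads in GH males, 15.2 ± 1.23% in SI males, 11.01 ± 0.68% in GH females and 15.4 ± 2.54% in SI females. The reference share of rno-miR-129-5p was 2.69 points lower in SI rats (adjusted p = 0.060, exact permutation test).

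Changed 3′ ends were not particular to rno-miR-129-5p. Over the 314 miRNAs with that form tested, 20 were called with a higher and 2 with a lower share in SI rats (adjusted p under 0.05), and the median difference was 0.45 points. rno-miR-26b-5p was 1 of the 2 called lower, by 3.36 points (exact permutation test, p = 0.0014, adjusted p = 0.043). Its share was 83.2, 84.4, 85.4, 86.3 and 87.0% in GH males and 79.8, 81.3, 81.5, 82.2 and 83.5% in SI males, and it was 85.7, 85.8, 86.0, 86.6 and 89.1% in GH females and 79.5, 82.1, 82.7, 85.6 and 87.7% in SI females. Within each sex 1 SI rat lay inside the range of the GH rats. The mean share of the read longer by 1 base was 70.2% in GH and 69.0% in SI males, and 71.6% and 71.0% in females. The mean share of the reference was 11.1 and 14.4% in males and 10.1 and 11.5% in females.

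The call for rno-miR-26b-5p was lost on leaving out any 1 of 16 libraries, with adjusted p-values from 0.056 to 0.095 and differences from -3.88 to -2.86 points over all 20. It held only without GH male 19, SI male 19, SI female 10 or SI female 17. With the I17 libraries exchanged adjusted p was 0.070, and without SI female 16 and both I17 libraries it was 0.14.

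**Figure D5:**
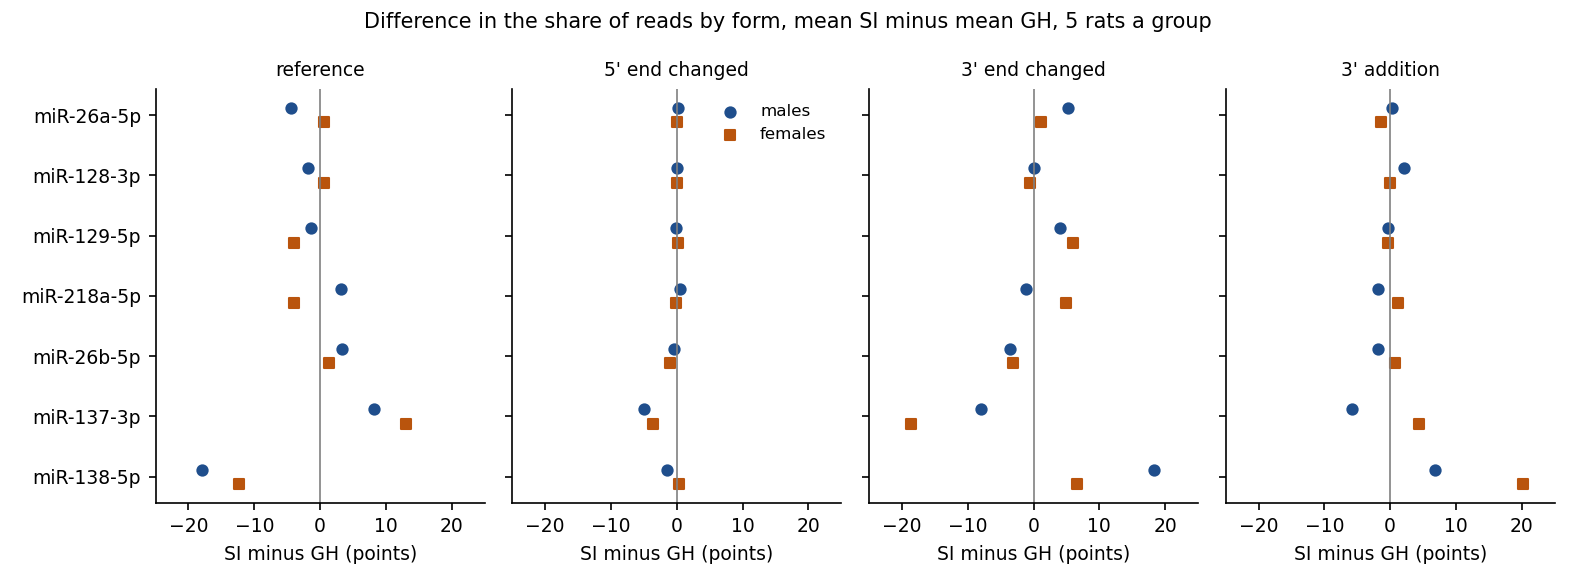
Mean share in SI rats minus mean share in GH rats, in percentage points, of 4 read forms of the 7 miRNAs, in males and in females (5 rats a group, no error drawn). Among the 3′ end changes rno-miR-129-5p lies at 4.06 and 5.99 and rno-miR-26b-5p at -3.63 and -3.10, and the largest displacements belong to rno-miR-137-3p and rno-miR-138-5p, which had the fewest reads.

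Larger differences in rno-miR-137-3p and rno-miR-138-5p did not pass. The share of rno-miR-137-3p reads with a changed 3′ end was 13.3 points lower in SI rats (adjusted p = 0.061, exact permutation test), and SI females had 0 to 49.0% against 52.2 to 58.2% in GH females. The 0 was SI female 16, with 178 reads of rno-miR-137-3p, and the other 4 SI females had 40.5 to 49.0%. Without SI female 16 the difference over both sexes was -8.76 points, and without it and both I17 libraries -6.00 points. The reference share of rno-miR-138-5p was 15.1 points lower (adjusted p = 0.14), from 0 to 41.2% in SI females and 8.36 to 25.1% in SI males against 29.1 to 39.9% and 19.4 to 63.4% in the GH rats. The share of rno-miR-26a-5p reads with a changed 3′ end was 3.20 points higher in SI rats (adjusted p = 0.073), with 13.7 to 17.2% in SI males above 7.92 to 12.8% in GH males, and overlapping ranges in females. Within a sex the exact permutation test cannot give p below 0.0079, and 0 of the 1250 forms passed after adjustment.

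Which miRNAs had the most similar profiles was described with Pearson's r of log2 normalized RPM over the 20 libraries, which share normalization and housing groups. Within the 7, rno-miR-218a-5p and rno-miR-26a-5p were the most alike (r = 0.93), followed by rno-miR-137-3p with rno-miR-26a-5p (0.81) and with rno-miR-26b-5p (0.76). SI female 16 and both I17 libraries had the lowest levels of both rno-miR-218a-5p and rno-miR-26a-5p. SI female 16 and SI male 17 were also the lowest for rno-miR-137-3p. These values of r rest in part on those libraries, and r was not computed without them. rno-miR-129-5p was closest to rno-miR-128-3p (0.60) and had negative values with the other 5, from -0.40 to -0.07. Among all 500, the 3 most like rno-miR-129-5p were rno-miR-6331 (0.90), rno-miR-106b-3p (0.88) and rno-miR-151-3p (0.84). Those of rno-miR-137-3p were rno-miR-384-3p (0.91), rno-miR-384-5p (0.89) and rno-miR-369-3p (0.88). Those of rno-miR-138-5p were rno-miR-107-3p (0.69), rno-miR-15b-3p (0.67) and rno-miR-29b-5p (0.63), and those of rno-miR-128-3p were rno-miR-139-5p (0.73), rno-miR-212-5p (0.67) and rno-miR-543-3p (0.62). rno-miR-218a-5p was followed, after rno-miR-26a-5p, by rno-miR-148a-3p (0.86) and rno-miR-487b-3p (0.85), and rno-miR-26a-5p, after rno-miR-218a-5p, by rno-miR-30d-5p (0.88) and rno-miR-221-5p (0.87). rno-miR-26b-5p had rno-miR-146a-5p (0.83), rno-miR-361-5p (0.79) and rno-miR-362-5p (0.78).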

How the data were processed

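Small RNA of 20 adBNST punches was sequenced after 22 PCR cycles. In bcbio-nextgen, reads were trimmed (cutadapt), identical ones were merged, and they were aligned to rat hairpins of miRBase 21 (seqbuster). What the authors deposited is a raw count for each distinct sequence with at least 2 reads. Versions of cutadapt and seqbuster are not given in the sources used here. Counts were summed per miRNA, reads that match several miRNAs (0.164 to 0.267% per library) counting for each. miRNAs with at least 10 counts in at least 5 libraries were normalized by TMM and fitted in 1 model of 4 groups with edgeR 4.0.16 (R 4.3.3). Standard errors were derived from F and the estimate, and approximate 95% intervals from them. Alternatives used DESeq2 1.42.0 and limma 3.58.1. Read forms and arm ratios (log2, pseudocount 0.5) were compared with exact permutation tests in Python 3.11.15, adjusted over all miRNAs rather than over the 7 as first planned. For differences between the sexes these tests exchanged labels of sex within housing groups, which is exact only if sex has no effect there. Each library is labelled as a separate rat. Cage mates of GH rats were littermates, and the labels tie no rat to a litter or cage. Female samples were chosen by the study for high RNA integrity and for a spread of estradiol levels within each group. The p-values measure the spread between these libraries. The 7 miRNAs and all lists were chosen with earlier results of these data known. The text names the 7, the listed neuronal miRNAs and partner arms that passed, the 3 most similar miRNAs and the leading reads. Markers of other cells are given mostly as counts and summed levels, also where they passed. Scripts were tested on simulated data.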

Additional observations from a re-analysis of the deposited data

Results flagged for a closer look

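In 8 of 52 groups of 5 rats, 1 library lay apart from the other 4 (its gap to the nearest divided by the group's range was above 0.71), which chance gives in about 1 of 20 groups. SI male 17, an I17 library, was low for rno-miR-137-3p (5.88 against 7.71 to 8.35, log2 normalized RPM), for rno-miR-26a-5p (15.30 against 15.94 to 16.08) and for the log2 ratio of rno-miR-137-3p to its partner arm (1.66 against 2.79 to 3.11). SI male 20 was low for rno-miR-128-3p (15.22 against 15.47 to 15.55). For the share of rno-miR-129-5p reads with a changed 3′ end, GH female 15 was low (23.7% against 26.2 to 26.4%), GH male 18 was high (30.0% against 27.1 to 27.7%) and SI male 20 was low (29.0% against 32.1 to 33.1%). GH female 15 was also high for the same share of rno-miR-26b-5p (89.1% against 85.7 to 86.6%).

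For 9 measures, out of 7 levels, 28 read forms and 8 ratios, the effect of isolation in females differed from that in males before adjustment (p under 0.05), and 0 of them passed after adjustment over all miRNAs. Each value is the SI minus GH difference in females minus that in males. It was -1.16 on the log2 scale for the level of rno-miR-138-5p (adjusted p = 0.46 by edgeR). By exact permutation tests it was -1.77 for the log2 ratio of rno-miR-138-5p to its partner arms (p = 6.0e-04, adjusted p = 0.11) and 1.31 for that of rno-miR-129-5p (p = 0.046, adjusted p = 0.45). Among the reference reads, by the same exact test, it was 2.43 percentage points for rno-miR-128-3p (p = 0.043), -7.20 for rno-miR-218a-5p (p = 0.0032) and 4.94 for rno-miR-26a-5p (p = 0.0018). Among changed 3′ ends, by the exact test, it was 6.06 for rno-miR-218a-5p (p = 0.0049) and -4.18 for rno-miR-26a-5p (p = 0.033), and among 3′ additions it was 2.52 for rno-miR-26b-5p (p = 0.012). The lowest adjusted p of these read forms was 0.49.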

How the results depend on the processing

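Counts are of the 7 miRNAs that passed. Over both sexes the 1 call (rno-miR-129-5p) became 0 without SI female 16 and both I17 libraries, an alternative chosen after seeing the data, and ranged from 0 to 1 with single libraries left out. With DESeq2's size factors or Wald test, limma voom, no filter, I17 exchanged, or only mismatch-free or single-miRNA reads, its adjusted p was 0.013 to 0.049. In males 0 became 1 without the 3 libraries (rno-miR-26b-5p) and was 0 with each library left out. In females 0 became 2 with DESeq2's Wald test (rno-miR-129-5p 0.73, adjusted p = 0.019, and rno-miR-138-5p -0.81, adjusted p = 0.025) and was 0 to 1 with single libraries left out. The sex comparisons, the interaction and the ratios stayed at 0 under every alternative run. The 2 read forms became 1 with I17 exchanged and 0 without the 3 libraries, and 1 to 5 with single libraries left out. The change of rno-miR-137-3p 3′ ends passed on mismatch-free reads (-13.7 points, adjusted p = 0.042), and that of the rno-miR-129-5p reference on sequences with at least 10 reads (-2.96, adjusted p = 0.040). The causes were not tested.

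Some log2 fold changes changed sign, none of them past the threshold in either fit. Without the 3 libraries, females gave 0.0095 for rno-miR-137-3p, 0.24 for rno-miR-218a-5p, 0.24 for rno-miR-26a-5p and 0.15 for rno-miR-26b-5p, and both sexes gave 0.15, 0.054 and 0.11 for the first 3. With limma voom, females gave 0.0084 for rno-miR-218a-5p, 0.097 for rno-miR-26a-5p and 0.081 for rno-miR-26b-5p, both sexes gave 0.062 for rno-miR-137-3p and 0.038 for rno-miR-26a-5p, and males gave 0.015 for rno-miR-129-1-3p, whose call over both sexes was then lost (-0.46, adjusted p = 0.15). With I17 exchanged, males gave 0.085 for rno-miR-138-2-3p. With single libraries left out, rno-miR-137-3p in males ran from -0.10 to 0.34, rno-miR-26a-5p in males from -0.17 to 0.023, in females from -0.15 to 0.14 and over both sexes from -0.13 to 0.0032, rno-miR-218a-5p in females from -0.32 to 0.056, rno-miR-26b-5p in females from -0.22 to 0.079, and the rno-miR-218a-5p reference share from -0.88 to 0.12 points.

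Of the animal numbers, 2 in males and 3 in females occur in both housing groups. Their libraries did not deviate together (correlations -0.40 to 0.10), so the numbers were not taken as pairs. On these 10 rats, 0 of the 7 miRNAs passed over both sexes with the replicate block and 0 without it, and rno-miR-129-5p was 0.56 (adjusted p = 0.25) and 0.53 (adjusted p = 0.21). In males the replicate block gave -0.027 for rno-miR-129-5p (-0.024 on the same rats without it), -0.031 for rno-miR-138-5p and 0.033 for rno-miR-26a-5p. Over all 500 miRNAs the calls over both sexes fell from 88 to 0 with the block and to 20 on the same rats without it.

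The number of all miRNAs called in males, 20, was 60 with DESeq2's Wald test, 87 with limma voom, 89 with only the male groups fitted, 74 without the 3 libraries, 11 with I17 exchanged, 0 with and without the replicate block, and 7 to 73 with single libraries left out. In females, 2 became 67 with the Wald test, 3 with voom, 0 with only the female groups fitted, 1 without the 3 libraries, 5 with I17 exchanged, 0 with the block and 46 on the same rats without it, and 1 to 63 with single libraries left out. For the interaction, 2 became 6 with the Wald test, 0 with DESeq2's size factors, 1 without the 3 libraries and 0 with I17 exchanged, and 0 to 2 with single libraries left out. Between SI males and SI females 0 became 13 without the 3 libraries. Depth limits rno-miR-137-3p and rno-miR-138-5p, whose read forms rest on 178 to 2826 and 418 to 2090 reads a library.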
